A study of Homo sapiens with 4 samples.

Results

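The nuclear lamina genes described here are 10 genes chosen by symbol from a table of 58825 genes: BANF1, the lamin genes LMNA, LMNB1 and LMNB2, the inner nuclear membrane genes LBR, TMPO, LEMD2 and LEMD3, and the SUN domain genes SUN1 and SUN2. All 10 were found and all 10 reached a mean of at least 1 FPKM (fragments normalized to transcript length and library depth) in at least 1 group. They were read in 4 RNA-seq libraries of HaCaT cells, an established human keratinocyte line. Both groups grew in medium with 1.2 mM calcium and received lentivirus, carrying shNC, the control hairpin, in 2 libraries, and shlnc-DC, which silences the long noncoding RNA lnc-DC, in the other 2. The aim given for the series is a differentiation signature under lnc-DC silencing. The list was drawn up with results of these data known, and BANF1 heads it because it was called lower in this same comparison. Its difference between groups is therefore given as a description with no test.

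The nuclear lamina is a meshwork of intermediate filament proteins, the lamins, that lines the inner nuclear membrane and carries the mechanical load of the nucleus. Membrane proteins with a LEM domain bind BANF1, the barrier-to-autointegration factor BAF, a small protein that holds double-stranded DNA and lamins together and gathers the chromosomes into a single nucleus after mitosis. SUN proteins cross the inner membrane and reach through the envelope to the cytoskeleton. The balance of A-type to B-type lamins varies between tissues, and loss of lamin B1 is widely used as a marker of senescence.

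BANF1 (ENSG00000175334) lies on the plus strand of chromosome 11 from 66002079 to 66004149 (GRCh38, GENCODE 29). GENCODE 29 gives it 8 transcripts of 251 to 1155 bases and 5 processed pseudogenes, which are intronless copies elsewhere in the genome. The copy BANF1P3, on the minus strand of chromosome 2 from 230725143 to 230725403, is the closest. It differs from the BANF1 coding sequence of 270 bases at 4 aligned bases and lacks 9 others, with 98.5% identity over the aligned bases. Both are printed here from the GENCODE 29 transcripts because reads from one could be counted for the other. Capitals mark the bases that differ or are missing in the copy.
BANF1 coding sequence: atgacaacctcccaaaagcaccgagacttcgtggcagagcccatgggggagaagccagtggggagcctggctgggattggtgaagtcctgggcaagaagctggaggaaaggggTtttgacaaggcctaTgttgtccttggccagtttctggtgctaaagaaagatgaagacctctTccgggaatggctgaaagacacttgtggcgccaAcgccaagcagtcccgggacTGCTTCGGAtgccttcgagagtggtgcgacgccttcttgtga
BANF1P3: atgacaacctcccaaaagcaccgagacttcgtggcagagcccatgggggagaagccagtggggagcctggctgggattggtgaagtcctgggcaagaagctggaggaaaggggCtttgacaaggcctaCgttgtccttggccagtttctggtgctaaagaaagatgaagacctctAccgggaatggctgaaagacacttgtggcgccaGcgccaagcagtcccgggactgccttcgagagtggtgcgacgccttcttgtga
Within the coding sequence the longest stretch shared without a difference was 113 bases, and the reads were 150 bases long. That stretch begins at the first base compared. Sequence outside the coding sequence was not compared, so the shared stretch could be longer. The other 4 copies were 87.9% to 92.4% identical and were listed at 0 in all 4 libraries.

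BANF1 also shares its upstream region with a neighbour. EIF1AD, which codes for a nuclear protein with an eIF1A-like domain, lies on the opposite strand, and in GENCODE 29 the exons of these genes overlap by 98 bases. In RefSeq (GRCh38.p14) the start sites are 346 bases apart. The window from 250 bases before to 50 bases after the BANF1 start, chr11:66002253-66002552 on the plus strand, is printed because the genes on its sides had opposite signs in the knockdown (values below). Capitals mark the 155 bases that also fall in the EIF1AD window.
BANF1 promoter window: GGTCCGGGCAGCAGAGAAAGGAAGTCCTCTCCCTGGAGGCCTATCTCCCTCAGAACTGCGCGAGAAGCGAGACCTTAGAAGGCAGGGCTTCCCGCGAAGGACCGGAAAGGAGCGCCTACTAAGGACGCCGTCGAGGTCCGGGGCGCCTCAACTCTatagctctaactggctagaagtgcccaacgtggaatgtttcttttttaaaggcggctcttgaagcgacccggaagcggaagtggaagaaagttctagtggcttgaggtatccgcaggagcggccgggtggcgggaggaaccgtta
The letters CCGGAAG, a core bound by ETS factors, were searched on both strands. They occur at -27 from the BANF1 start and also in the EIF1AD window, against 10.2% of 34943 RefSeq windows of this length. Of the 9 members with a window (15 windows in all), LMNB2 and LEMD3 hold them too. CCAAT was found in windows of 5 members (LMNA, LMNB1, TMPO, LEMD3 and SUN2; 34.6% of all windows) and GGGCGG in 6 (44.9%), but neither in that of BANF1. TATAAA was in none of the members' windows and in 11.6% of all. TTTGAA was in windows of LMNB2 and SUN2 and in 15.2% of all. Genes with several windows had more chances of a match, and a match is only a description of these letters.

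For the whole table, log2(FPKM + 1) was fitted with limma over 12411 genes, of which 14 were called higher and 17 lower in the knockdown at a Benjamini-Hochberg adjusted p under 0.05. Over all of these genes the median log2 fold change was 0.09, and 61.4% lay above 0. The target, WFDC21P (lnc-DC), had 2.15 and 2.76 FPKM in control and 0.09 and 0.29 FPKM in knockdown libraries. It was not among the called genes (limma adjusted p = 0.0715). Of 8 keratinocyte or general epithelial markers 6 reached 1 FPKM in some library, while KRT14 stayed at or below 0.35 and KRT17 at or below 0.85. The summed FPKM of the 8 was 716.5 and 794.2 in control and 433.5 and 488.4 in knockdown libraries. Most of that sum is KRT5 (means of 287 and 140 FPKM) and SFN (305 and 170 FPKM). TP63 (8.435 and 7.63 FPKM) and EPCAM (100.9 and 110.5 FPKM) overlapped between groups. KRT6A (11.06 and 4.385 FPKM) and CDH1 (41.3 and 27.3 FPKM) were also lower in both knockdown libraries. So were KRT14 and KRT17 below 1 FPKM, and 19.2% of all tested genes. KRT5, SFN, KRT6A and CDH1 did not pass (limma adjusted p of 0.0833, 0.0747, 0.116 and 0.0971). None of 5 fibroblast or 4 melanocyte markers reached 1 FPKM. Of 3 immune markers CD14 did, at up to 3.00 FPKM, and PTPRC was listed at 0. The share of mitochondrially encoded transcripts in summed FPKM was 41.2% and 41.9% in control and 28.1% and 26.8% in knockdown libraries. The part of these shifts in the results was not tested. Total read counts are unknown, and whole reads could not be recovered from the spacing of low values.

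BANF1 was the most abundant of the 10 genes in the control libraries and no longer in the knockdown libraries. It stood at 136.38 and 146.13 FPKM in control and at 46.31 and 52.50 FPKM in knockdown cells. Both knockdown values lay far below both control values, and the replicates of a group differed by much less than the groups. The means were 141 ± 6.89 and 49.4 ± 4.38 FPKM (SD, n = 2 per group), 2.86-fold lower in the knockdown, with a log2 fold change of -1.50 (SE 0.121) on the log2(FPKM + 1) scale. Among all tested genes BANF1 was at position 35 from the lowest log2 fold change, and among the 299 genes with a control mean of at least 100 FPKM at position 6. Its level was above 98.4% of tested genes in control and above 94.2% in knockdown cells. The authors' deposited table lists a fold of 0.35 and a log2 ratio of -1.52 for it.

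Of the 10 genes BANF1 alone was called lower, where 0.137% of all tested genes were, and none was called higher, where 0.113% were. Nothing is read from these counts, since BANF1 was chosen for its call. The log2 fold change stayed between -1.59 and -1.41 in 14 alternative settings, and the call ended in 8 of them. In 6 of these 8 limma called no gene of the table, among them each omission of 1 library, which leaves a group of 1 whose spread is taken from the other group. The other 2 were median centring and the fit with the trend off. When FPKM was rescaled to nuclear genes alone, leaving out the mitochondrial share, it was -1.54. Each gene has 1 value per library in the table, so a change in the mix of short and long BANF1 transcripts was not tested.

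**Figure D1:**
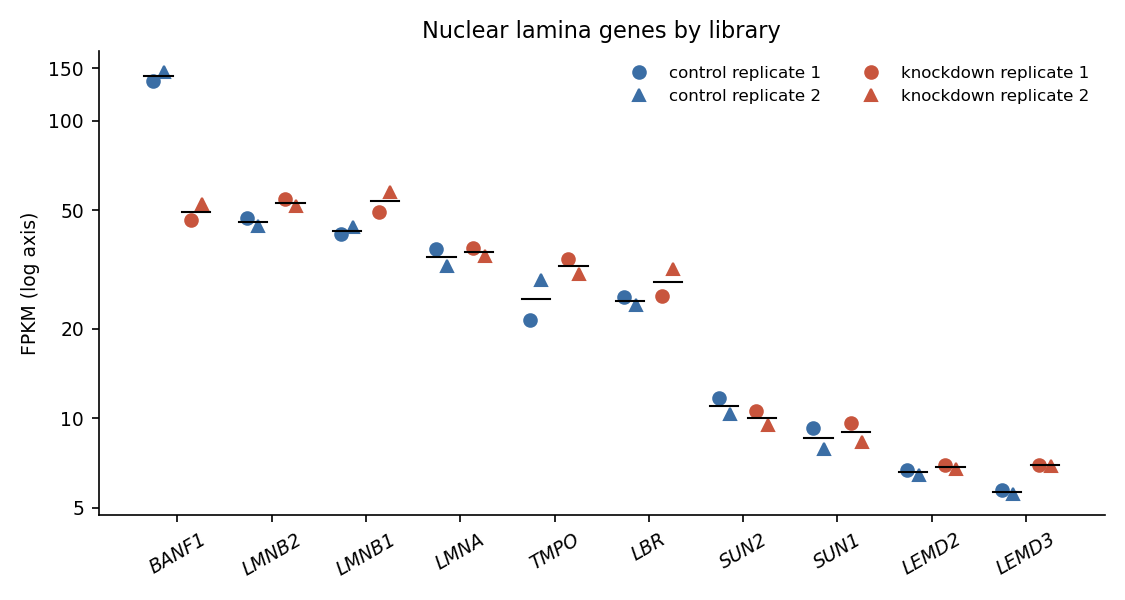
FPKM (log axis) of the 10 nuclear lamina genes, ordered by control mean, in control (blue) and knockdown (red) libraries, with circles for replicate 1, triangles for replicate 2 and a line at each group mean. BANF1 is at 136.38 and 146.13 in control and at 46.31 and 52.50 in knockdown libraries, whereas the groups of the other genes lie close together or overlap.

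The copy BANF1P3 did not follow BANF1. It was listed at 4.85 and 4.45 FPKM in control and at 6.25 and 7.30 FPKM in knockdown libraries, so its groups did not overlap and its sign was opposite. Its log2 fold change of 0.46 (SE 0.129) did not pass (limma adjusted p = 0.147). How many of its reads came from BANF1 transcripts was not tested.

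The genes beside BANF1 on chromosome 11 had the opposite sign as well. Of 8 other genes within 50 kb, 3 were tested. EIF1AD stood at 6.41 and 6.43 FPKM in control and at 8.61 and 7.73 in knockdown libraries. SART1, a splicing factor of the tri-snRNP whose gene ends 22251 bases upstream, stood at 19.90 and 20.39 FPKM in control and at 32.02 and 32.29 in knockdown libraries. SF3B2, a subunit of the U2 snRNP that starts 46580 bases downstream, stood at 28.01 and 30.61 FPKM in control and at 39.55 and 40.86 in knockdown libraries. In each of these 3 genes both knockdown libraries were above both control libraries, as were 35.6% of all tested genes. None passed the test, with log2 fold changes of 0.30 (EIF1AD), 0.65 (SART1) and 0.44 (SF3B2) and limma adjusted p of 0.213, 0.0789 and 0.120. Of the 5 untested neighbours, CATSPER1 stayed between 0.42 and 0.50 FPKM. CST6, which codes for the epidermal protease inhibitor cystatin M/E, was listed at 0 in all 4 libraries, as were TSGA10IP and GAL3ST3, and the pseudogene AP006287.1 did not exceed 0.09 FPKM.

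**Figure D2:**
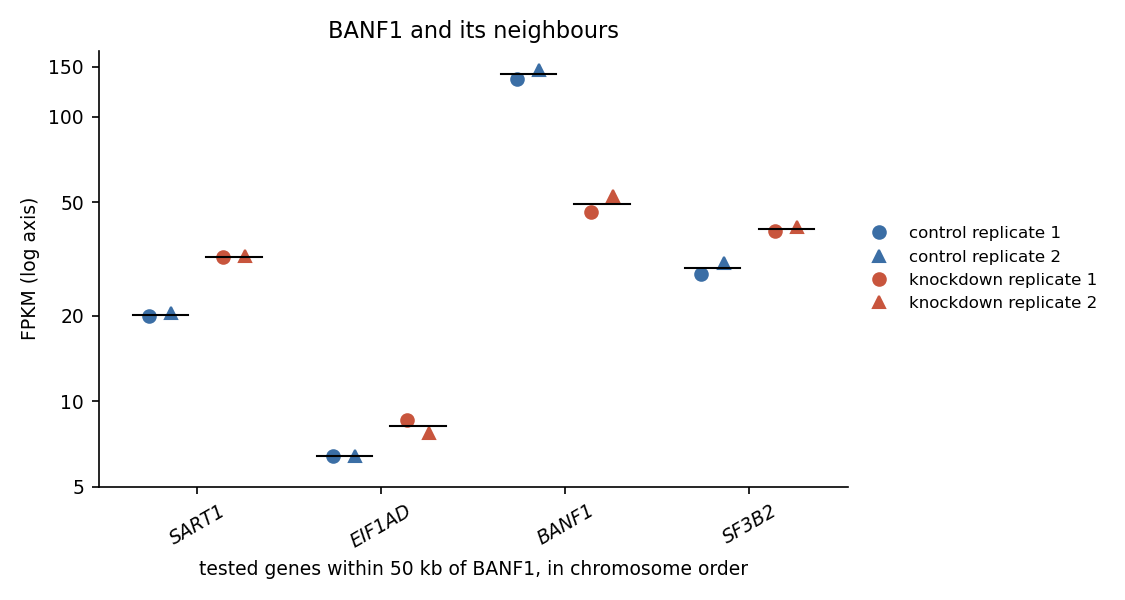
FPKM (log axis) of BANF1 and the 3 other tested genes within 50 kb, in chromosome order, with symbols and lines as in the plot of the 10 genes by library. BANF1 is lower in both knockdown libraries, and SART1, EIF1AD and SF3B2 are higher in both.

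The B-type lamin genes were slightly higher in both knockdown libraries, short of the test. LMNB1 (chromosome 5, 126776623 to 126837020, plus strand) codes for lamin B1, which keeps its farnesyl anchor and stays at the membrane. It stood at 41.62 and 43.86 FPKM in control and at 49.45 and 57.77 FPKM in knockdown libraries. The knockdown libraries did not overlap the control ones, but differed from each other by more than the gap between the groups. The log2 fold change was 0.32 (SE 0.125, limma adjusted p = 0.229). LMNB2 (chromosome 19, 2427638 to 2456996, minus strand), the gene of lamin B2, stood at 47.32 and 44.28 FPKM in control and at 54.52 and 51.63 in knockdown libraries. These groups did not overlap either, with a log2 fold change of 0.21 (SE 0.107, adjusted p = 0.321). LMNB2 shares 257 exon bases on the same strand with TIMM13, which stood between 21.36 and 27.50 FPKM, so part of its reads could be divided between them.

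LMNA (chromosome 1, 156082573 to 156140089, plus strand) codes for lamins A and C, spliced from 1 gene, and its table value does not separate them. It stood at 37.18 and 32.60 FPKM in control and at 37.23 and 35.19 FPKM in knockdown libraries. The groups overlapped. Its log2 fold change of 0.05 (SE 0.118, limma adjusted p = 0.807) turned negative under quantile normalization, median centring and without control replicate 2.

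The LEM domain genes of the inner membrane, whose proteins bind BANF1, did not follow it. TMPO (chromosome 12, 98515512 to 98550379, plus strand) codes for the LAP2 proteins, one of which binds lamin A in the nuclear interior. It stood at 21.40 and 29.14 FPKM in control and at 34.23 and 30.61 FPKM in knockdown libraries. Control replicate 1 was low, and control replicate 2 lay just under the knockdown values, so the log2 fold change of 0.36 (SE 0.178, adjusted p = 0.307) became 0.15 without control replicate 1 and 0.58 without control replicate 2. TMPO shares 713 exon bases with TMPO-AS1 on the opposite strand, which stayed between 3.15 and 3.69 FPKM.

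LEMD3 (chromosome 12, 65169571 to 65248327, plus strand) codes for MAN1, which binds SMAD proteins and dampens TGF-beta signalling. It stood at 5.74 and 5.55 FPKM in control and at 6.99 and 6.91 FPKM in knockdown libraries. The replicates lay close together and the groups did not overlap, with a log2 fold change of 0.26 (SE 0.106, limma adjusted p = 0.241). LEMD2 (chromosome 6, 33771202 to 33789136, minus strand) codes for a LEM protein that takes part in sealing the envelope after mitosis. It stood at 6.71 and 6.46 FPKM in control and at 6.96 and 6.74 FPKM in knockdown libraries. Its groups were separated by only 0.03 FPKM, and its log2 fold change of 0.05 (SE 0.107, adjusted p = 0.805) turned negative under quantile normalization and median centring.

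LBR (chromosome 1, 225401502 to 225428925, minus strand) codes for the lamin B receptor, which tethers heterochromatin and is also a sterol reductase. It stood at 25.52 and 23.97 FPKM in control and at 25.72 and 31.77 FPKM in knockdown libraries. Knockdown replicate 1 was almost level with control replicate 1, and knockdown replicate 2 was the high library. The log2 fold change was 0.20 (SE 0.140, limma adjusted p = 0.445), or 0.05 without knockdown replicate 2 and 0.35 without knockdown replicate 1.

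The SUN genes overlapped between groups. SUN1 (chromosome 7, 816615 to 896435, plus strand) stood at 9.28 and 7.89 FPKM in control and at 9.61 and 8.33 FPKM in knockdown libraries. Replicate 1 was higher than replicate 2 in both groups by more than the groups differed. Its log2 fold change of 0.06 (SE 0.137, limma adjusted p = 0.827) changed sign in 4 of 14 alternative settings, among them quantile normalization and median centring. SUN1 shares 1842 exon bases on the same strand with GET4, which stood between 3.53 and 4.37 FPKM. SUN2 (chromosome 22, 38734725 to 38794143, minus strand) was the only gene other than BANF1 with a negative value, at 11.72 and 10.33 FPKM in control and 10.62 and 9.49 FPKM in knockdown libraries, a log2 fold change of -0.12 (SE 0.125, adjusted p = 0.595). It shares 76 exon bases on the same strand with DNAL4, which stood between 2.16 and 3.42 FPKM. On the opposite strand it shares 680 with GTPBP1, which stood between 3.38 and 5.60 FPKM. It also shares 236, 359 and 450 there with AL021707.1, AL021707.3 and AL021707.5, which did not exceed 0.43 FPKM.

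**Figure D3:**
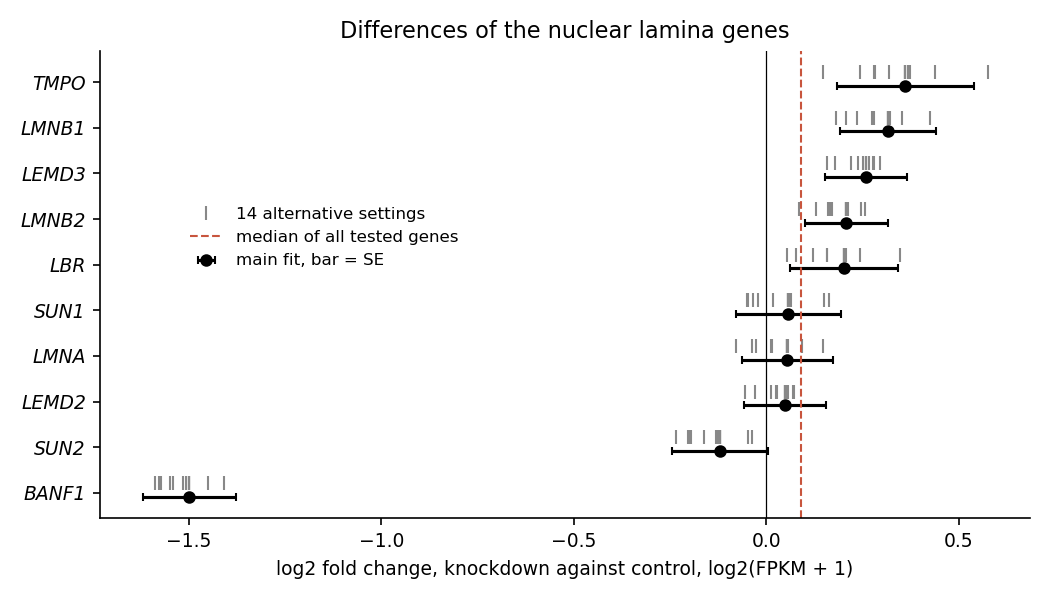
Log2 fold change on the log2(FPKM + 1) scale for each of the 10 genes, with its SE as a bar, grey ticks for the 14 alternative settings and a dashed line at the median of all tested genes, 0.09. BANF1 stays between -1.59 and -1.41 in all settings shown, and the other 9 genes lie between -0.12 and 0.36 in the main fit.

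Across the other 9 genes the median log2 fold change was 0.20, beside 0.09 for all tested genes. Of the 9, 8 lay above 0, as did 61.4% of all tested genes, and 5 lay above the median of all tested genes. With BANF1 the median of the 10 was 0.13. Both knockdown libraries lay above both control libraries in 6 of the 10 genes (35.6% of all tested genes) and below in 1 (19.2%). None of the 9 had an unadjusted p under 0.05 in limma, and their adjusted p lay between 0.229 and 0.827.

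The genes can be ordered by FPKM, a level per transcript length. In control cells it ran from BANF1 through LMNB2 (45.8), LMNB1 (42.7), LMNA (34.9), TMPO (25.3), LBR (24.7), SUN2 (11.0), SUN1 (8.59) and LEMD2 (6.59) to LEMD3 (5.65). In knockdown cells LMNB1 (53.6), LMNB2 (53.1) and BANF1 (49.4) had replicates that overlapped each other. Below them came LMNA (36.2), TMPO (32.4), LBR (28.7), SUN2 (10.1), SUN1 (8.97), LEMD3 (6.95) and LEMD2 (6.85). TMPO and LBR overlapped in each group. SUN2 and SUN1 overlapped in knockdown libraries alone, as did LEMD3 and LEMD2, while LMNB2 lay just above LMNB1 in the control libraries.

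Ratios within a library do not depend on its total. BANF1 over LMNB1 was 3.28 and 3.33 in control and 0.936 and 0.909 in knockdown libraries. BANF1 over the sum of the 3 lamin genes was 1.08 and 1.21 in control and 0.328 and 0.363 in knockdown libraries. BANF1 was lower relative to the lamins in both knockdown libraries by a wide margin over the replicate gap. Since BANF1 was chosen for its call on these same values, its ratios restate that difference and add no support. Among the lamins, LMNB1 over LMNA was 1.12 and 1.35 in control and 1.33 and 1.64 in knockdown libraries, which overlap. LMNB2 over LMNA was 1.27 and 1.36 in control and 1.46 and 1.47 in knockdown libraries, which do not. LEMD3 over LEMD2 was 0.855 and 0.859 in control and 1.004 and 1.025 in knockdown libraries. SUN1 over SUN2 was 0.792 and 0.764 in control and 0.905 and 0.878 in knockdown libraries. In these last comparisons the shift was small but larger than the difference between replicates. The smallest two-sided p of an exact permutation test is 0.333 with 2 libraries a group, so no ratio was tested.

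**Figure D4:**
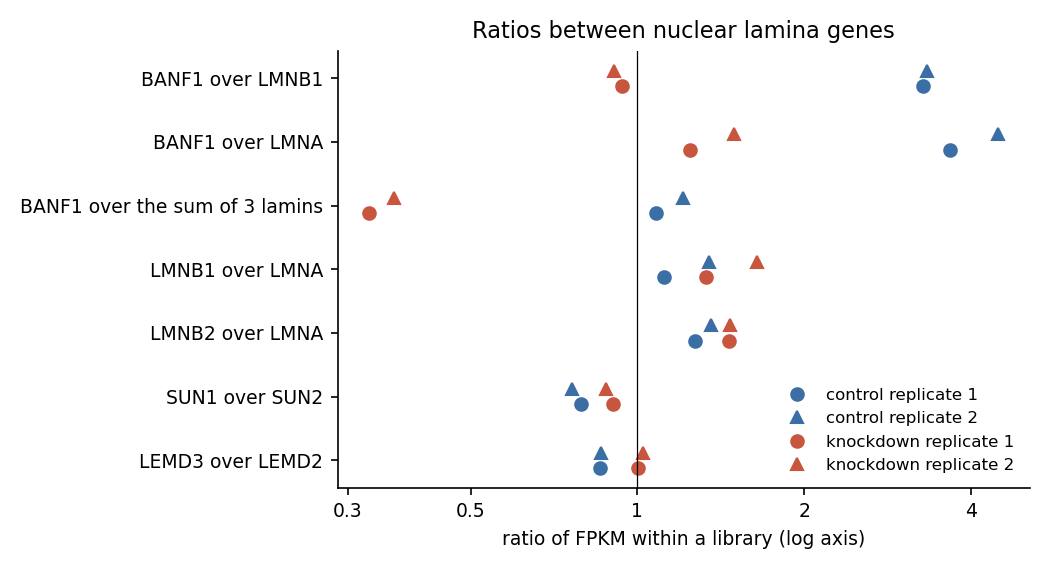
Ratios of FPKM within each library (log axis), with control libraries in blue, knockdown libraries in red, circles for replicate 1 and triangles for replicate 2. The ratios with BANF1 on top separate the groups widely, with BANF1 over LMNB1 at 3.28 and 3.33 against 0.936 and 0.909, while LMNB1 over LMNA overlaps.

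By Euclidean distance of log2(FPKM + 1) centred on each gene's mean over the 4 libraries, the tested gene nearest to BANF1 was CFB, complement factor B, at a distance of 0.0429. It stood at 13.52 and 14.39 FPKM in control and at 4.10 and 4.54 FPKM in knockdown libraries. Next came WFDC21P itself (0.126), VAV3, a guanine nucleotide exchange factor (0.139), CRABP2, a retinoic acid binding protein (0.167), and SLURP2 (0.170). CRABP2 stood at 41.00 and 45.90 FPKM in control and at 13.43 and 17.82 FPKM in knockdown libraries. VAV3 did not exceed 3.16 FPKM, and SLURP2 was listed at 0 in both knockdown libraries. This scale understates the change of low genes, so WFDC21P and VAV3 are near BANF1 on it although their group means differ by larger ratios of FPKM. With only 4 libraries, the likeness says little more than that these genes share the step between groups.

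The wider nuclear envelope was described with 6 further lists of 70 genes, of which 60 were tested. None was called in either direction (0.250% of all tested genes were), while 9 higher and 3 lower had an unadjusted limma p under 0.05, against 14.8% and 8.00% of all tested genes. The median log2 fold change of the 60 genes was 0.17. Of the 60, 43 lay above 0 (61.4% of all tested genes) and 37 above the median of all tested genes. Of the 10 untested genes, BANF2, the non-DNA-binding relative of BANF1, was listed at 0 in all 4 libraries, and SYNE1, a nesprin that SUN proteins hold, did not exceed 0.04 FPKM.

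The list of kinase and phosphatase genes linked to the phosphorylation of BAF also held BANF2, the only 1 of its 10 genes not tested. Of the 9 tested, 7 lay above 0 and 2 below, none passed, and the median was 0.24. The groups did not overlap in 7 genes that were higher (35.6% of all tested genes) and 2 that were lower (19.2%). PPP2R2A, a regulatory subunit of protein phosphatase 2A, stood at 6.77 and 5.09 FPKM in control and at 9.58 and 9.84 FPKM in knockdown libraries (limma adjusted p = 0.121). The scaffold subunit PPP2R1B had means of 5.77 ± 0.311 and 7.41 ± 0.134 FPKM (SD, n = 2 per group), and the catalytic subunit PPP2CA 36.8 ± 2.11 and 44.3 ± 0.460 FPKM. PPP4C, the catalytic subunit of phosphatase 4, had the opposite sign, with 25.8 ± 0.983 and 21.3 ± 0.255 FPKM. VRK1, the main BAF kinase, named here for its role after its values were seen, stood at 14.56 and 18.22 FPKM in control and at 18.44 and 23.69 FPKM in knockdown libraries.

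Of 18 ESCRT-III genes and partners, which close holes in the reforming envelope, all were tested, 13 lay above 0, and the median was 0.13. CHMP1A had the smallest p of the 6 lists and still did not pass. It stood at 12.71 and 12.21 FPKM in control and at 24.31 and 21.15 FPKM in knockdown libraries, a log2 fold change of 0.82 (SE 0.118, limma adjusted p = 0.0747). CHMP7, which LEMD2 recruits to the envelope, stood at 6.74 and 6.32 FPKM in control and at 10.40 and 8.53 FPKM in knockdown libraries (adjusted p = 0.151). IST1 was on the other side, with 11.2 ± 0.530 and 8.81 ± 0.149 FPKM, and VPS4A, the ATPase that takes the filaments apart, had 16.6 ± 0.608 and 19.3 ± 0.566 FPKM (SD, n = 2 per group).

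All 5 prelamin processing enzymes were tested, all lay above 0, none passed, and the median was 0.09, that of all tested genes. ZMPSTE24, the protease that cuts prelamin A to mature lamin A, stood at 16.13 and 16.52 FPKM in control and at 22.03 and 21.00 FPKM in knockdown libraries (limma adjusted p = 0.139). The farnesyltransferase subunit FNTB had means of 5.86 ± 0.163 and 7.20 ± 0.311 FPKM (SD, n = 2 per group). The groups overlapped for the other subunit, FNTA, and for RCE1 and ICMT, which cut and methylate the farnesylated end.

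Of 13 other inner membrane genes 12 were tested, with 7 above 0, 5 below and a median of 0.14. NEMP1 stood at 15.20 and 12.13 FPKM in control and at 19.11 and 17.03 FPKM in knockdown libraries, whereas its relative NEMP2 stood at 2.44 and 2.38 FPKM in control and at 1.58 and 1.71 FPKM in knockdown libraries. Neither passed (limma adjusted p = 0.224 and 0.198). CNEP1R1, a subunit of the phosphatase that controls lipin, had means of 1.89 ± 0.417 and 3.04 ± 0.559 FPKM, and TOR1AIP1, the torsin activator LAP1, 6.59 ± 1.63 and 8.82 ± 1.27 FPKM (SD, n = 2 per group). EMD, which codes for the LEM protein emerin and is named here for its role after its values were seen, stood at 14.08 and 13.79 FPKM in control and at 13.29 and 12.34 FPKM in knockdown libraries. Both knockdown values of EMD lay below both control values, by 0.50 FPKM, as in 19.2% of all tested genes. Its log2 fold change was -0.11 (SE 0.105, limma adjusted p = 0.558).

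Of 13 genes of the LINC complex, which joins SUN proteins to the cytoskeleton, and of the torsin ATPases, only 5 were tested, and their median was -0.17. TOR3A stood at 8.81 and 9.94 FPKM in control and at 13.21 and 13.48 FPKM in knockdown libraries (limma adjusted p = 0.120). TOR1A (17.8 ± 0.912 and 15.2 ± 1.51 FPKM) and TOR2A (2.31 ± 0.0141 and 1.69 ± 0.163 FPKM) were on the other side, and TOR1B overlapped between groups.

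Of 12 chromatin and DNA-sensing partners of the lamina 10 lay above 0 (61.4% of all tested genes), and the median was 0.21. The groups did not overlap in 5 genes that were higher (35.6% of all tested genes) and 1 that was lower (19.2%). CGAS, the cytosolic DNA sensor that BAF keeps off genomic DNA, stood at 2.25 and 2.51 FPKM in control and at 3.94 and 3.66 FPKM in knockdown libraries. The groups did not overlap, with a log2 fold change of 0.51 (SE 0.126, limma adjusted p = 0.124). The lower gene was TMEM173 (STING), at 1.77 and 1.58 FPKM in control and 1.40 and 1.47 FPKM in knockdown libraries. Its log2 fold change was -0.13 (adjusted p = 0.598). PARP1, a DNA damage sensor, had means of 54.3 ± 1.80 and 68.4 ± 2.14 FPKM. The HP1 genes CBX3 (40.6 ± 0.198 and 48.4 ± 3.82 FPKM) and CBX5 (8.79 ± 2.03 and 12.2 ± 1.23 FPKM), whose proteins bind LBR, were also higher in both knockdown libraries (SD, n = 2 per group) and did not pass. The remaining HP1 gene, CBX1, overlapped between groups, at 34.96 and 13.10 FPKM in control and 34.49 and 37.94 FPKM in knockdown libraries; it was added after its values were seen.

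**Figure D5:**
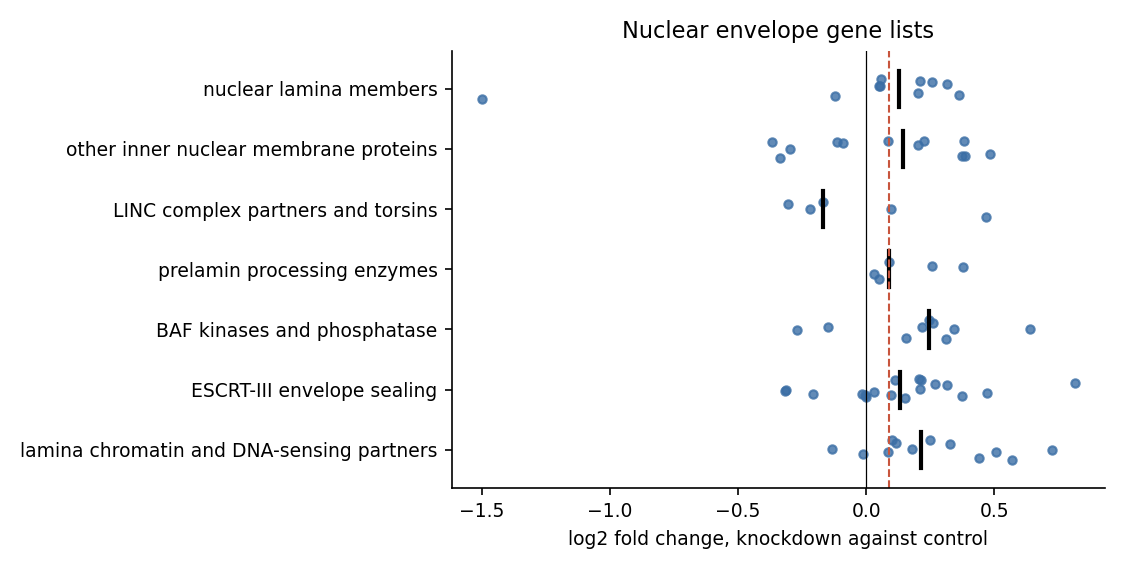
Log2 fold change of each tested gene in the 10 nuclear lamina genes and the 6 further lists, with a thick bar at each list's median, a thin line at 0 and a dashed line at the median of all tested genes, 0.09. BANF1, at -1.50, is the lowest point and was listed because it was called lower in this comparison, so its place is no result. The list medians lie between -0.17 and 0.24.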

How the data were processed

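The authors deposited FPKM values with 2 decimals for 58825 genes and 4 libraries, made from oligo(dT)-selected mRNA (5 µg of total RNA, paired reads of 150 bases) per the labels' protocols. The deposited table also gives a fold (ratio) of group means and its log2. The submitters' processing notes name cutadapt 1.9, HISAT2 2.0.4 and StringTie 1.3.4d beside DESeq2 and edgeR, without roles. For the build, the annotation and reads with several matches, the processing is not given in the sources used here. There were 0 columns without a sample.

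The members and all lists were chosen with earlier results of these data known. A gene was tested if either group's mean reached 1 FPKM (12411 genes), as log2(FPKM + 1) in limma 3.58.1 (R 4.3.3, with the trend on, group as the only term, two-sided, Benjamini-Hochberg over all tested genes, threshold 0.05). A fold is a ratio of mean FPKM. FPKM is relative to the library, so abundant transcripts move all other values. The labels call the 2 libraries of a group biological replicates without saying whether they were transduced separately, and p-values measure the spread between these samples. Named genes are the 10 members, up to 4 genes with the smallest p in each other list, genes within 50 kb of BANF1, the 5 genes nearest to BANF1, markers and WFDC21P. BANF2, SYNE1, ICMT, VRK1, EMD, CBX1, TMEM173 and the BANF1 copies and exon-sharing genes were named after their values were seen.

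Positions, exon overlaps and transcripts came from GENCODE 29 (GRCh38), where 58552 gene IDs were found, and promoter windows from RefSeq (GRCh38.p14). Whole reads were sought in genes with 1 transcript: at the best depth 29.2% to 32.0% of low values lay within 0.1 of a whole read, and the median depth gave 17.4% to 17.9%. In simulated data over 12411 genes for this comparison, limma recovered 78.8% of genes changed 2-fold and 98.4% changed 4-fold. All of them were at a mean log2 value above 2. Whether this recovery holds in the 4 libraries was not tested. There KRT5, KRT6A and CRABP2 were 2.05-fold, 2.52-fold and 2.78-fold lower in the knockdown. They did not pass (limma adjusted p of 0.0833, 0.116 and 0.0661), whereas BANF1 (2.86-fold) and CFB (3.23-fold) were called. The alternatives were other pseudocounts, filters, scalings and variance models, a replicate block and leaving out each library.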

Additional observations from a re-analysis of the deposited data

How the results depend on the processing

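BANF1 stayed below 0 in all 14 alternative settings, and its call ended in 8. The count of nuclear lamina genes called lower went from 1 to 0 with no filter on low values, with median centring, with the trend off and with the replicate block, and was 0 each time when 1 library was left out, where a group of 1 library is assumed to vary like the other. LMNA, LEMD2 and SUN1 turned to -0.0778, -0.0548 and -0.0488 under quantile normalization and to -0.0254, -0.0303 and -0.0223 under median centring. When 1 library was left out, LMNA ranged from -0.0377 to 0.147 and SUN1 from -0.0472 to 0.162. Median centring moves all genes of a library by 1 amount. The median over all tested genes was 0.0909 in the main fit, 0.0224 under quantile normalization and 0.011 under median centring. In the main fit LMNA (0.0545), LEMD2 (0.0496) and SUN1 (0.0576) lay below that median. The cause of the changes in the other settings was not tested. The median of the 10 genes, 0.130, became 0.0141 under quantile normalization, 0.0496 under median centring and 0.0888 with nuclear genes rescaled, and 0.0919 to 0.155 when 1 library was left out. The median of the wider lists, 0.167, became 0.203 and 0.193 with pseudocounts of 0.1 and 0.5, 0.116 with no filter, 0.151 with a minimum of 5 FPKM, 0.0822 under quantile normalization, 0.0869 under median centring, 0.135 with nuclear genes rescaled, and 0.0838 to 0.233 when 1 library was left out. No gene of the wider lists was called in any setting.

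Over all genes, 14 higher and 17 lower became 31 and 27 with a minimum of 5 FPKM and 8 and 9 with the trend off, and the lower count became 40 under quantile normalization. With no filter, with the replicate block and when 1 library was left out, 0 were called in either direction (limma, with 3876, 3791 and 1797 to 2251 genes at an unadjusted p under 0.05). The labels number the replicates alike in both groups, but state no shared batch or day. The difference between replicates 1 and 2 correlated weakly between groups across genes (Pearson r = 0.124 over 12411 genes, which are not independent), so the block was kept as an alternative.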
